A study of Mus musculus with 12 samples.

Results

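The 10 genes described here encode the NF-κB transcription factor subunits and the proteins that hold them in check. They are the subunit genes *Nfkb1*, *Rela*, *Rel*, *Nfkb2* and *Relb*, the inhibitor genes *Nfkbia*, *Nfkbib*, *Nfkbie* and *Nfkbiz*, and *Tnfaip3*. They were taken by symbol as a gene family, with earlier results of these data known, from 18992 gene identifiers in the series. All 10 were measured in every library. The cells were PD-1+CD44+CD8+ T cells sorted for single-cell RNA-seq from NZB/W F1 mice, a hybrid strain that develops lupus nephritis and that carries no further allele or treatment in the labels. The 3 groups were spleen at 12 weeks (12W spleen, the stage before disease), spleen at 28 weeks (28W spleen, the advanced stage) and kidney at 28 weeks (28W kidney). Each group had 4 samples in the labels, but the values came as 1 pooled table per group, so each group counted as 1 library and no test between groups was possible. Pooling of animals and their number were not given in the sources used here. The age of 28W spleen rests on its sample titles, as another label field reads 12 weeks.

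NF-κB factors are dimers that wait in the cytoplasm bound to IκB proteins. T cell receptor and TNF receptor signals activate the IκB kinase, which marks the IκB proteins for degradation, and the freed dimers move to the nucleus. The pathway also switches on genes that end its own activity, including *Nfkbia* and *Tnfaip3*, so transcripts of these genes are often read as a trace of recent signalling. In T cells the pathway serves activation, cytokine production and survival.

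Levels are given as unique molecular identifiers (UMIs, 1 per captured RNA molecule) per 1000000 UMIs of a library or cluster (CPM). Intervals in brackets are exact 95% intervals that cover counting error alone and not the spread between animals. The libraries held 34742303 UMIs from 6894 cells (12W spleen), 32023473 from 6481 (28W spleen) and 29937384 from 7135 (28W kidney), in 10, 11 and 12 clusters set by the authors. The members had between 528 and 15977 UMIs per library. Libraries shared 52 to 66 cell barcodes. In the text, 12W and 28W stand for the spleen libraries and kidney for the 28W kidney library. A library level mixes how many cells express a gene with how much RNA each holds, and these cannot be told apart in it.

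The sort label was checked against markers. T cell genes (*Cd3d*, *Cd3e*, *Cd3g*, *Cd8a* and *Cd8b1*) summed to 4668, 4433 and 5715 CPM in the 3 libraries in the order above, and all 5 were detected in each. *Pdcd1* and *Cd44*, the genes of the sorted surface markers, together reached 68.0, 83.2 and 189.5 CPM. Markers of other cells were raised in 8 of 33 clusters, called raised-marker clusters here: cluster 3 of 12W spleen, clusters 8 and 10 of 28W spleen, and clusters 2, 7, 8, 11 and 12 of 28W kidney. All 6 B cell and all 6 myeloid markers were detected in every library, while 5 of 6 kidney tubule markers were at 0 in both spleens. B cell markers summed to between 31.1 and 2936 CPM over the clusters of 12W spleen, between 55.7 and 23984 at 28W and between 48.0 and 33512 in kidney. A further property set apart 4 low-RNA clusters with under 1500 UMIs per cell: cluster 8 of 12W spleen (928), clusters 8 and 11 of 28W spleen (1020 and 1288) and cluster 2 of 28W kidney (1200). The 23 clusters with neither property are the kept clusters.

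Promoter sequences are shown first, because NF-κB binds the κB motif and the pathway acts on several of its own genes. RefSeq promoters (GRCm38.p6, 250 bases before to 50 after each start) were at hand for 7 of the 10 members (not *Nfkb1*, *Relb* and *Nfkbiz*), and 5 of these 7 held a match to the 10-base κB consensus on either strand. Of all 32851 promoters of this length, 8.46% held a match. The windows below are the 150 bases before the first listed start of the 5 genes with a match there, 5′ to 3′ in the direction of the gene, with matches in capitals.
*Nfkbia* (chr12:55492648-55492797, minus strand): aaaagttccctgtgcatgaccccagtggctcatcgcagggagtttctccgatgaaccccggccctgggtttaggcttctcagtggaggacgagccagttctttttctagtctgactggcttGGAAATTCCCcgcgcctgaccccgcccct
*Tnfaip3* (chr10:19015411-19015560, minus strand): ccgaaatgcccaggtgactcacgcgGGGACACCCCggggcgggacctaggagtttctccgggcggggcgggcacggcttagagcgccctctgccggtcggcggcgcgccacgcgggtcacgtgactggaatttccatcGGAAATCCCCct
*Rel* (chr11:23770970-23771119, minus strand): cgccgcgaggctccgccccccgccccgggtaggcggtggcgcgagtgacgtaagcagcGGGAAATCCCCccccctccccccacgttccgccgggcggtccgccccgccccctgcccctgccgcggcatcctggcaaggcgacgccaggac
*Nfkb2* (chr19:46304587-46304736, plus strand): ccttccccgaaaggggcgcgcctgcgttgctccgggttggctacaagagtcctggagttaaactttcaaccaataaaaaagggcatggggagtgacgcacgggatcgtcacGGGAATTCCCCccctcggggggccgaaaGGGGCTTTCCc
*Nfkbie* (chr17:45555550-45555699, plus strand): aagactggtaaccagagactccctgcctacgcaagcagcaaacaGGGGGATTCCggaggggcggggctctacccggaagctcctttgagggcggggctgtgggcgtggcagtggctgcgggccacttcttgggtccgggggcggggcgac

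The first base of the match lay at -29 in *Nfkbia*, at -125 and -12 in *Tnfaip3*, and at -106 in *Nfkbie*, counted from the base before the start as -1. In *Rel* 3 overlapping matches occupied 1 place from -92, and in *Nfkb2* matches lay at 2 places from -39 and -11. *Nfkb2* has 3 starts and *Tnfaip3* 2 in the table, and the first of each is shown. *Rela* and *Nfkbib* had no match in their windows. A match of letters is a description and was not read as a bound site.

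The canonical subunits *Nfkb1*, *Rela* and *Rel* were considered first. *Nfkb1* (chr3:135584655-135691547), which encodes the p105 precursor of p50, was at 43.6 CPM (41.5 to 45.9) at 12W, 47.9 (45.5 to 50.3) at 28W and 45.6 (43.2 to 48.1) in kidney. *Rela* (chr19:5637483-5648130), which encodes the transactivating subunit p65, was at 71.5 (68.7 to 74.4), 75.9 (72.9 to 78.9) and 68.4 (65.5 to 71.5) CPM in the same order. Both genes were thus nearly level, and neither differed by 1.5-fold between spleen ages or between organs. *Rel* (chr11:23736847-23770970), which encodes c-Rel, a subunit abundant in lymphocytes, was at 35.5 CPM (33.5 to 37.5) at 12W and 33.8 (31.8 to 35.9) at 28W. In kidney it was at 59.9 CPM (57.1 to 62.7), which was 1.77-fold (1.64 to 1.91) above 28W.

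The non-canonical subunits *Nfkb2* and *Relb* act in a slower branch downstream of the kinase NIK. *Nfkb2* (chr19:46304320-46312385), encoding p100 and its product p52, was at 22.6 CPM (21.0 to 24.2) at 12W, 24.7 (23.0 to 26.5) at 28W and 30.5 (28.6 to 32.5) in kidney. *Relb* (chr7:19606217-19629438) was at 37.5 (35.5 to 39.6), 43.3 (41.0 to 45.6) and 46.4 (44.0 to 48.9) CPM. All steps between libraries were below 1.5-fold. The age step of *Nfkb2*, at 1.09-fold (0.989 to 1.21), and the organ step of *Relb*, at 1.07-fold (0.994 to 1.15), were within counting error.

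The IκB genes were less uniform. *Nfkbia* (chr12:55489410-55492647), encoding IκBα, was at 235 CPM (229.6 to 239.9) at 12W, 395 (388 to 402) at 28W and 534 (525 to 542) in kidney. *Nfkbib* (chr7:28758251-28767512), encoding IκBβ, was at 69.5 (66.7 to 72.3), 63.0 (60.2 to 65.8) and 68.5 (65.6 to 71.6) CPM. *Nfkbie* (chr17:45555703-45563169), encoding IκBε, was at 23.7 (22.1 to 25.3), 28.2 (26.4 to 30.1) and 43.4 (41.1 to 45.9) CPM. The 3 IκB genes therefore had separate patterns, with *Nfkbia* higher at each step in whole libraries, *Nfkbib* almost level, and *Nfkbie* 1.54-fold (1.41 to 1.68) higher in kidney than at 28W.

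*Nfkbiz* (chr16:55811375-55838899) encodes IκBζ, a nuclear protein that modulates NF-κB at target genes. Its level was 15.2 CPM (13.9 to 16.6) at 12W, 26.6 (24.8 to 28.5) at 28W and 31.2 (29.2 to 33.2) in kidney. *Tnfaip3* (chr10:19000910-19015657) encodes A20, a ubiquitin-editing enzyme that shuts off signalling upstream of the IκB kinase. Its level was 39.6 CPM (37.5 to 41.7) at 12W, 125 (121 to 129) at 28W and 137 (133 to 142) in kidney. In both genes the larger step was the one between the spleen ages.

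**Figure D1:**
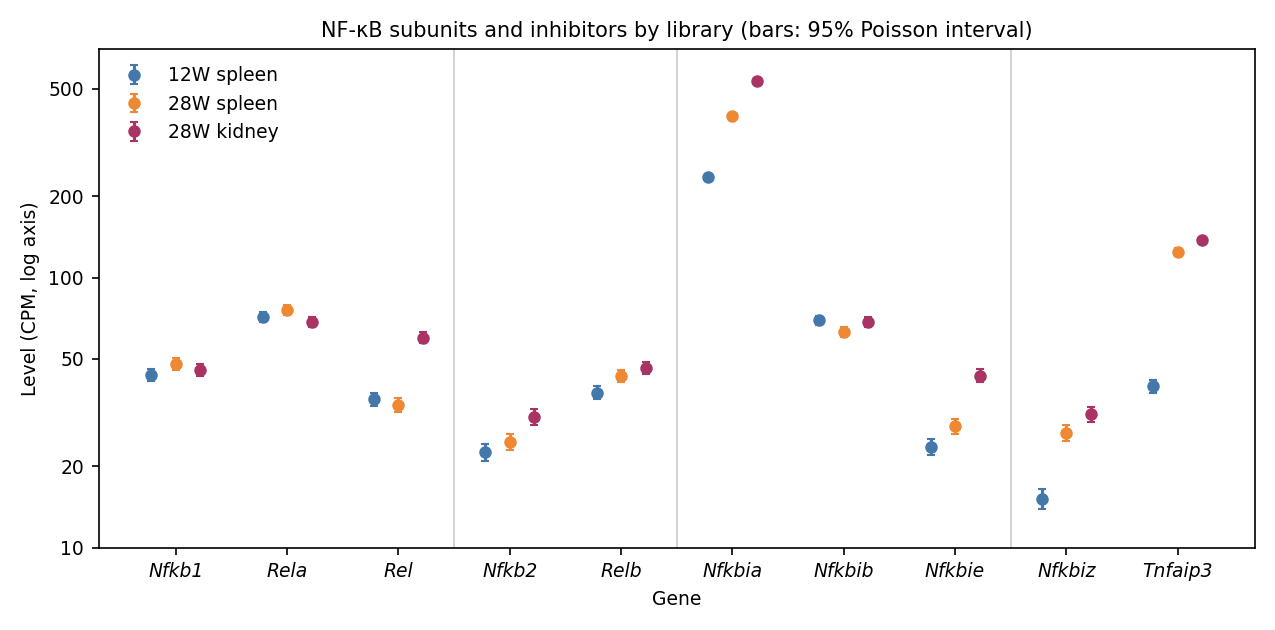
Level of each member (x axis) in CPM on a log axis (y axis) for the 3 libraries, with exact 95% Poisson intervals as bars; grey lines part canonical subunits, non-canonical subunits, IκB genes, and *Nfkbiz* with *Tnfaip3*. *Tnfaip3* stood at 39.6 CPM at 12W and at 125 and 137 CPM in the 28W libraries, whereas *Rela* stayed between 68.4 and 75.9 CPM.

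The age comparison set the spleens against each other, to ask how the family differs between an early and a late stage of the disease. Of the 10 members, 3 were at least 1.5-fold higher at 28W and 0 were lower, among genes with 10 CPM or more in either library. Of all 7434 such genes, 3.73% were higher and 3.04% lower by this rule. *Tnfaip3* was 3.15-fold (2.96 to 3.35) higher, *Nfkbiz* 1.75-fold (1.57 to 1.96) and *Nfkbia* 1.68-fold (1.64 to 1.73). All 3 encode negative or nuclear regulators of the pathway, and all 5 subunit genes lay between 0.952-fold (*Rel*) and 1.15-fold (*Relb*). The median log2 ratio (pseudocount of 1 CPM) was 0.17 over the members and -0.098 over all genes. In the kept clusters the 3 genes were 3.32-fold (3.11 to 3.55), 1.78-fold (1.58 to 2.0) and 1.71-fold (1.66 to 1.76) higher, again with 3 members higher (background 3.35%) and 0 lower (background 2.96%).

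*Nfkbia* was higher at 28W in cluster after cluster. Its cluster levels ran from 159 to 281 CPM with a median of 243 at 12W, and from 340.1 to 610.3 CPM with a median of 362 at 28W. Every 28W spleen cluster was thus above every 12W spleen cluster, including the B cell marked cluster 10 at 357 CPM. This held for 2 of 7434 genes (0.0269%), and within the kept clusters, where *Nfkbia* stayed apart as well, for 0.188%. The other gene was *Bcl3*, an IκB relative that acts in the nucleus, with 7.02 to 26.3 CPM over 12W clusters and 31.2 to 72.3 CPM over 28W clusters. *Tnfaip3* clusters ran from 12.3 to 407 CPM at 12W and from 34.7 to 910.1 CPM at 28W, so they overlapped. In the kept clusters *Tnfaip3* ran from 12.3 to 62.4 CPM at 12W and from 54.0 to 199.9 CPM at 28W, and the overlap came down to the lowest 28W clusters, 6 and 7 (54.0 and 61.8 CPM), and the highest 12W cluster.

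Genes that respond to tissue dissociation moved with this comparison. Of 13 such genes, 12 reached 10 CPM, and 9 of these were at least 1.5-fold higher at 28W and 1 was lower. *Junb* went from 309 to 884 CPM, *Fos* from 123 to 459 and *Dusp1* from 63.6 to 192. Summed over the list, cluster levels ran from 1411 to 5004 CPM at 12W and from 2628 to 5544 CPM at 28W. Their part in the member differences was not tested.

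**Figure D2:**
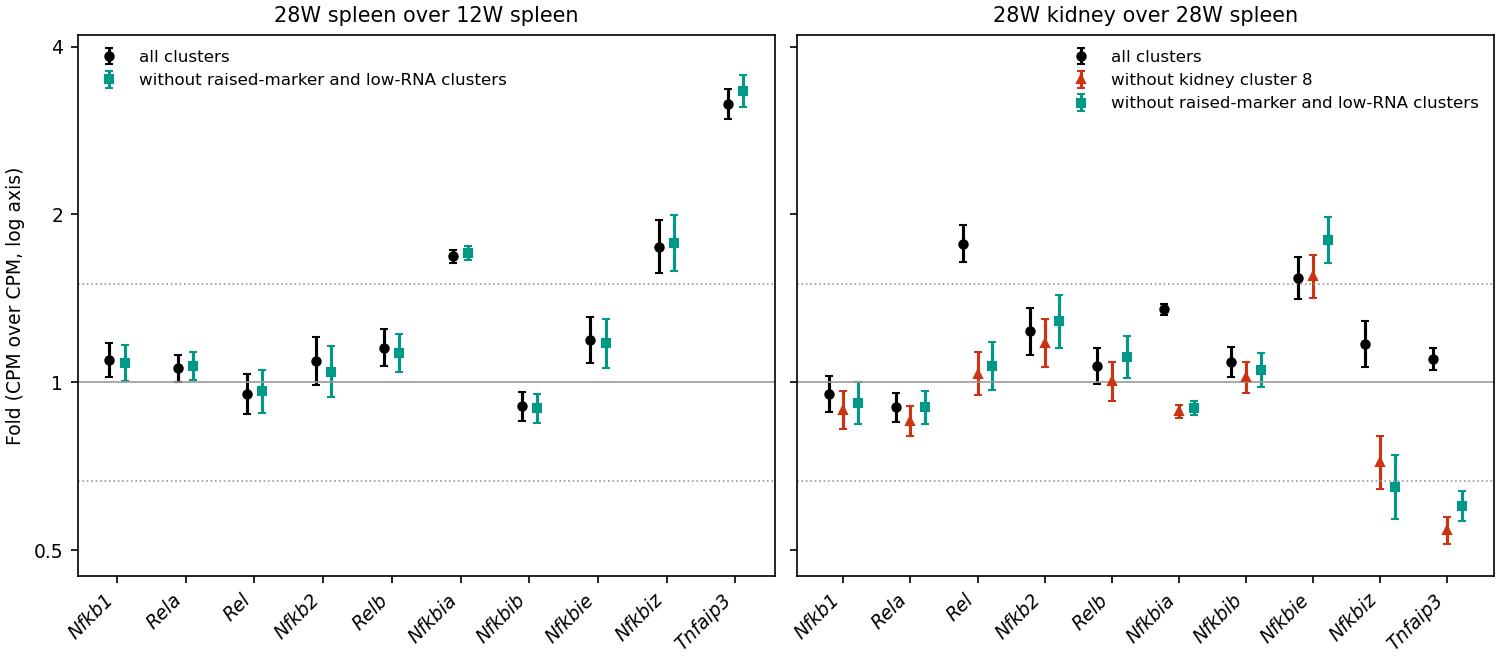
Fold of CPM (y axis, log scale) for each member (x axis) by age (28W over 12W, left) and by organ (kidney over 28W, right), in all clusters, without kidney cluster 8 (by organ) and in the kept clusters, with exact conditional 95% intervals; dotted lines mark 1.5-fold either way. *Tnfaip3* was 3.15-fold higher by age in all clusters, and in the organ comparison it went from 1.10-fold in all clusters to 0.544-fold without kidney cluster 8.

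The organ comparison set 28W kidney against 28W spleen, that is infiltrating against splenic cells of 1 age. In whole libraries 2 members were at least 1.5-fold higher in kidney, *Rel* and *Nfkbie*, and 0 were lower. Of all 7686 genes at 10 CPM or more, 10.7% were higher and 3.97% lower. The median log2 ratio was 0.18 over the members and 0.073 over all genes. The call of *Nfkbie* rested on the scaling, as its log2 ratio of 0.61 was 0.53 after scaling by the median gene ratio and 0.46 with a total that left out receptor, immunoglobulin, mitochondrial and ribosomal genes. That total took *Rel* from 0.81 to 0.66, and it turned the small differences of *Relb* (0.097 to -0.058), *Nfkbib* (0.12 to -0.035) and *Tnfaip3* (0.14 to -0.019). Kidney cluster 8, with 544 cells, held much of several members' RNA and set part of this picture. It carried 55.2% (53.7 to 56.8) of kidney *Tnfaip3* UMIs, 47.0% (44.7 to 49.3) of *Rel*, 44.4% (41.2 to 47.6) of *Nfkbiz* and 40.4% (39.7 to 41.2) of *Nfkbia*. Its share of all kidney UMIs was 9.36%, and it carried 8.85% (7.36 to 10.5) of *Nfkbie*.

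Without kidney cluster 8, 1 member was at least 1.5-fold higher in kidney (background 11%) and 1 was lower (background 4.73%). *Rel* was then at 35.0 CPM in kidney, 1.04-fold (0.949 to 1.13) its level at 28W. *Tnfaip3* went from 1.10-fold (1.05 to 1.15) to 0.544-fold (0.514 to 0.575), so that kidney became the lower library at 67.8 against 125 CPM. *Nfkbiz* went from 1.17-fold to 0.719-fold (0.643 to 0.803) and *Nfkbia* from 1.35-fold to 0.888-fold (0.865 to 0.912). For these 3 inhibitors the direction of the organ difference turned with this 1 cluster.

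*Nfkbie* kept its direction, at 1.55-fold (1.42 to 1.69) without kidney cluster 8 and 1.80-fold (1.64 to 1.98) in the kept clusters. There, its kidney clusters ran from 34.3 to 69.7 CPM with a median of 50.2, and its 28W spleen clusters from 19.2 to 32.7 CPM with a median of 30.8. The kept clusters of the organs did not overlap for *Nfkbie*, as for 1.2% of 7686 genes that were higher in kidney. Over all clusters they overlapped, since *Nfkbie* reached 81.0 CPM in the B cell marked cluster 10 of 28W spleen. In the raised-marker kidney clusters 11 and 7 it was at 20.5 and 27.6 CPM. T cell genes summed to 5098 CPM in kidney cluster 11 and 4134 in cluster 7. Kidney cluster 11, left out, led the proliferation markers of kidney (9309 CPM). Cluster 6, which led those of 28W spleen (3084 CPM), was kept, with *Nfkbie* at 19.2 CPM. The kept clusters gave 1 member higher (background 7.43%) and 2 lower (background 5.64%), the latter being *Tnfaip3* at 0.601-fold (0.565 to 0.639) and *Nfkbiz* at 0.650-fold (0.570 to 0.741). The members' median log2 ratio was -0.024 there and that of all genes 0.064. Per the methods, kidneys were minced and treated with collagenase before sorting, which is not described for spleens. Of 13 dissociation genes at 10 CPM or more, 4 were at least 1.5-fold higher in kidney and 1 was lower in whole libraries, whereas in the kept clusters 3 of 12 were higher and 6 lower, with *Junb* at 888 CPM in 28W spleen and 394 in kidney. Their part in the organ differences was not tested.

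**Figure D3:**
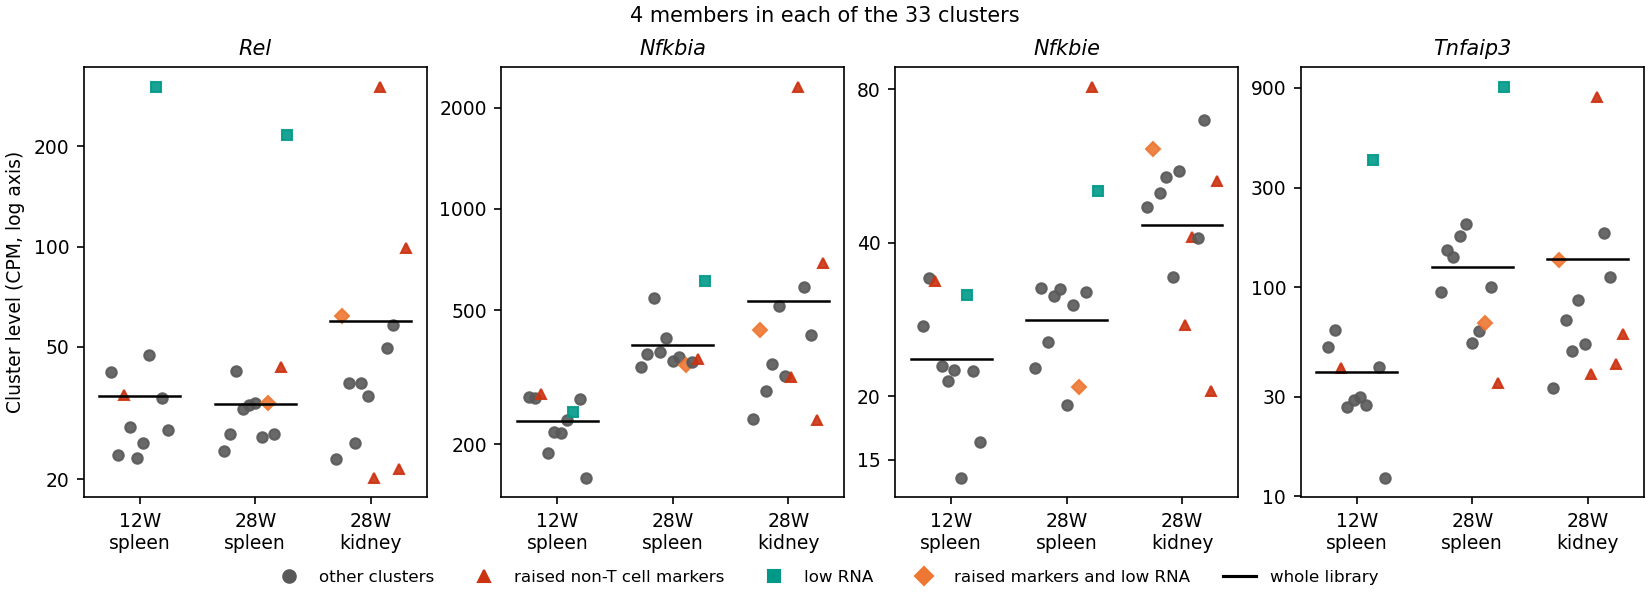
Levels of *Rel*, *Nfkbia*, *Nfkbie* and *Tnfaip3* in CPM (y axes, log scale) in each of the 33 clusters, ordered by cluster number within a library (x axis), with symbols for the cluster's kind and a line for the whole library. For *Nfkbia* the 28W spleen clusters, from 340.1 CPM, lie above all 12W spleen clusters, up to 281 CPM, and kidney cluster 8 stands apart at 2304 CPM.

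The clusters were then read within each library. They were made from all genes of these cells, the members included, so cluster differences are descriptions. The study also names *Nfkbia* and *Tnfaip3* among the genes that mark a cluster of its own named set. Those named clusters are fewer than the deposited clusters read here and were not matched to them. Ordered by level, 9 of 90 neighbouring cluster pairs had separate intervals at 12W, 6 of 100 at 28W and 14 of 110 in kidney, counted over the 10 members. Most neighbours in the order thus did not differ beyond counting error.

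At 12W, 5 members were highest in cluster 8, a low-RNA cluster of 307 cells with 8.98% mitochondrial UMIs, where 50.3% of all genes had their highest level. *Tnfaip3* reached 407 CPM (337 to 488) there, against 62.4 in the next cluster, and *Rel* 302 CPM (241 to 373) against 47.3. *Nfkb1* reached 158 CPM (115 to 211), *Nfkbiz* 80.7 (51.2 to 121) and *Relb* 66.7 (40.2 to 104). *Nfkbia* was at 249 CPM there, close to its library level, and *Rela* had its lowest value there at 49.1 CPM (26.9 to 82.5), within counting error of the next clusters. The high levels were thus not shared by the whole family. The part of the low RNA content and the mitochondrial share in them was not tested.

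Outside that cluster, *Nfkb2* was highest in cluster 9 (54.1 CPM, 44.5 to 65.2). It was among the 10 genes with the highest fold over the other clusters there. *Relb* was at 59.0 CPM (49.0 to 70.5) in the same cluster, which was highest for both genes among the kept clusters (background 4.38%). The interval of *Relb* overlapped with that of cluster 7 (50.9 CPM). *Rela* (88.0 CPM) and *Nfkbie* (34.1 CPM) were highest in cluster 2 (background 4.03%), as was *Tnfaip3* (62.4 CPM) among the kept clusters (background 11.3%). Each of these cluster 2 values was within counting error of the next, with *Rela* at 85.0 CPM in cluster 5, *Nfkbie* at 33.7 in cluster 3 and *Tnfaip3* at 52.1 in cluster 1. *Nfkbib* was highest in cluster 7 at 122 CPM (112 to 132) against 89.2 in the next cluster, and the same cluster had the lowest *Nfkbie* (13.8 CPM) and *Nfkbiz* (5.21 CPM). Among the kept clusters it was highest for *Nfkb1*, *Rel* and *Nfkbib* (background 28.7%), and cluster 1 for *Nfkbia* and *Nfkbiz* (background 36.1%). *Tnfrsf9*, which encodes the costimulatory receptor 4-1BB, was at 523 CPM in cluster 7. Cluster 10, which led the proliferation markers at 6183 CPM, was lowest for 6 members, where 12.1% of all genes were lowest (14.4% among the kept clusters), and had *Tnfaip3* at 12.3 CPM (8.65 to 16.9).

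At 28W, cluster 11 was, like 12W cluster 8, a low-RNA cluster, with 215 cells and 6.64% mitochondrial UMIs. In it 46.8% of all genes were highest. Unlike 12W cluster 8, its highest folds over the other clusters were those of immunoglobulin genes. *Igkv6-15* was at 6818 CPM and *Iglv1* at 5367, while its B cell markers summed to 155 CPM. The part of this RNA in the member levels was not tested. Of the members 5 were highest there, with *Tnfaip3* at 910.1 CPM (801 to 1030), *Rel* at 217 (165 to 279), *Nfkb1* at 173 (128 to 230), *Nfkbiz* at 134 (94.1 to 184) and *Nfkbia* at 610.3 (522 to 709.6). Unlike at 12W, *Nfkbia* had its highest level in this cluster, although its interval overlapped with that of cluster 3.

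The B cell marked cluster 10 of 28W spleen (*Cd79a* at 1196 CPM) had a second profile. *Nfkbie* (81.0 CPM, 61.2 to 105), *Relb* (92.5, 71.3 to 118) and *Nfkb2* (60.7, 43.8 to 82.1) were highest there, where 6.64% of genes were highest, and *Tnfaip3* was lowest at 34.7 CPM (22.2 to 51.6). For the 3 genes that were highest the interval overlapped with that of the next cluster. Among the 8 kept clusters of 28W spleen, cluster 3 was highest for 4 members (background 16%), with *Nfkbia* at 545 CPM (525 to 567), *Nfkb1* at 57.6, *Rel* at 42.2 and *Nfkbiz* at 38.0. Of these 4, only *Nfkbia* was apart from the next kept cluster. Cluster 9 was highest for *Rela* and *Relb* (background 25.5%) and cluster 6 for *Nfkb2* and *Nfkbib* (background 25%), each with 2 of the 10. *Tnfaip3* was highest in cluster 5 at 199.9 CPM (185 to 215) and lowest in cluster 6 at 54.0 (48.5 to 60.0).

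In kidney, 7 members were highest in cluster 8, where 8.03% of all genes were highest. *Nfkbia* reached 2304 CPM (2248 to 2361) against 692 in the next cluster, and *Tnfaip3* 810.4 (777 to 844) against 182. *Rel* reached 300.5 (281 to 321) against 99.2 and *Nfkbiz* 148 (134 to 163) against 98.2. For *Nfkbia*, *Rel* and *Nfkbiz* the next cluster was cluster 12, where myeloid markers summed to 10020 CPM. The highest kept clusters for these genes were at 587, 58.1 and 33.4 CPM. The steps of *Rela* (105 CPM, 93.3 to 118) and *Nfkbib* (109.6 CPM, 97.6 to 122.5) were smaller but also apart from the next cluster. *Relb* was at 74.6 CPM (64.8 to 85.4), which overlapped with the next. *Nfkbie* was near its library level at 41.0 CPM. It was highest in cluster 10, as was *Nfkb2*, where 11.8% of genes were highest.

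Kidney cluster 8 carried B cell RNA beside T cell RNA. B cell markers summed to 12874 CPM, with *Cd79a* at 1074 and *Ms4a1* at 225. T cell genes summed to 2191 CPM, and *Pdcd1*, the gene for the sorted marker PD-1, was at 24.6 CPM, the lowest of the 12 kidney clusters. Dissociation genes were highest of all clusters at 9652 CPM, with *Junb* at 4515. Myeloid markers summed to 31.0 CPM and tubule markers to 5.71. The part of B cell RNA and of dissociation in the levels of cluster 8 was not tested.

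Among the 7 kept kidney clusters, cluster 9 was highest for 6 members (background 7.04%). These were *Nfkbia* (587 CPM, 557 to 619), *Tnfaip3* (182, 166 to 200.3), *Nfkbiz* (33.4), *Rela* (77.6), *Relb* (59.3) and *Nfkbib* (77.2). Only *Nfkbia* and *Tnfaip3* were apart from the next kept cluster, and the intervals of the others overlapped with it. In that next cluster *Rela* was at 75.2 CPM, *Relb* at 55.6, *Nfkbib* at 68.9 and *Nfkbiz* at 23.2. The other 4 members were highest in cluster 10 (background 33.2%), with *Nfkb1* at 89.1 CPM, *Nfkbie* at 69.7, *Rel* at 58.1 and *Nfkb2* at 49.1. Of these 4, only *Nfkb1* was apart from the next kept cluster. Cluster 1, with 900 cells, was lowest of these 7 clusters for 7 members (15.7% of all genes), with *Tnfaip3* at 32.9 CPM (28.1 to 38.2), *Nfkbia* at 238 and *Rel* at 23.1. Dissociation genes summed to 5352 CPM in cluster 9 and 2663 in cluster 1, the lowest of the library. In cluster 5 they summed to 5397 CPM, with *Tnfaip3* at 87.0 CPM and *Nfkbia* at 516. The part of dissociation in these levels was not tested.

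**Figure D4:**
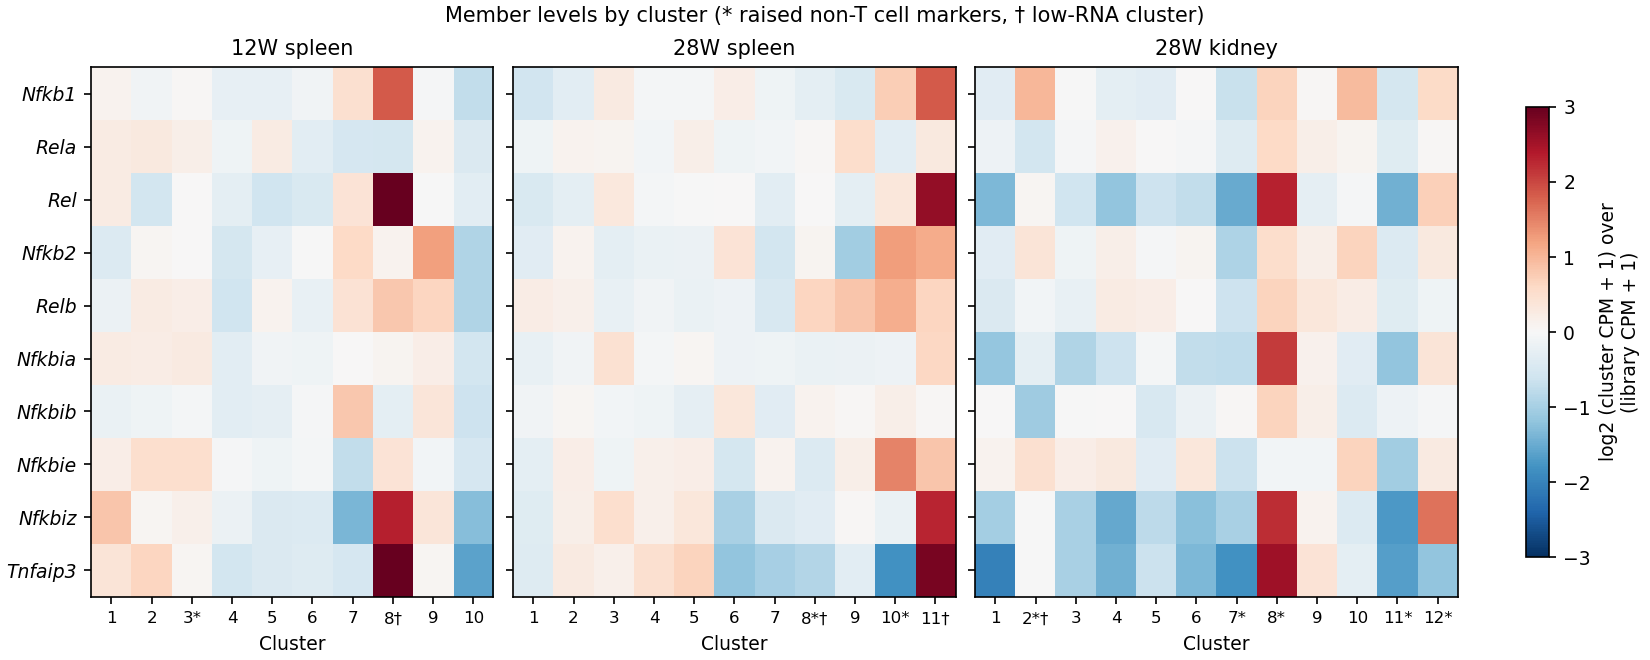
Level of each member (rows) in each cluster (columns) of the 3 libraries, as log2 of cluster CPM + 1 over library CPM + 1, from blue (lower) to red (higher), with a star for raised-marker and a dagger for low-RNA clusters. *Rel*, *Nfkbiz* and *Tnfaip3* are red together in cluster 8 of 12W spleen, cluster 11 of 28W spleen and cluster 8 of kidney, whereas *Rela* and *Nfkbib* stay pale.

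The members differed in how far their clusters spread. The highest cluster was at least 4-fold above the lowest, on the CPM + 1 scale, for 5 members at 12W (background 53.4%), 6 at 28W (42.6%) and 4 in kidney (38.1%). *Tnfaip3* had the widest spread in each library, at 30.7-fold, 25.5-fold and 23.9-fold, and *Rela* stayed at 1.77-fold, 1.80-fold and 2.23-fold. In the kept clusters the counts were 3 (background 18.9%), 0 (8.27%) and 1 (4.28%). *Tnfaip3* still spread 4.78-fold at 12W, 3.65-fold at 28W and 5.41-fold in kidney there, whereas *Rel* spread 2.0-fold, 1.70-fold and 2.45-fold.

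Ratios between members within a cluster do not depend on that cluster's total. The ratio of *Rel* to *Rela* UMIs was 0.496 at 12W, 0.445 at 28W and 0.875 in kidney. It was 6.14 in cluster 8 of 12W spleen, 2.31 in cluster 11 of 28W spleen and 2.86 in cluster 8 of kidney, the highest of each library. *Tnfaip3* to *Nfkbia* was 1.63 and 1.49 in the low-RNA clusters 8 and 11 of the spleens, and 0.352 in kidney cluster 8, again the highest of each library, against 0.169, 0.316 and 0.257 in the whole libraries. *Nfkb2* to *Nfkb1* was 1.28 in cluster 9 of 12W spleen against 0.518 in that library.

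Other genes of the pathway were read from lists. None of the kinases and adaptors that lead to the IκB kinase differed by 1.5-fold, with 0 of 18 measured at 10 CPM or more by age and 0 of 19 by organ. Since 3.73% and 3.04% of all genes were higher and lower by age, a count of 0 of 18 there is near the background. By organ these shares were 10.7% and 3.97%. The largest log2 ratios by age were 0.35 for *Birc3*, 0.27 for *Birc2*, both ubiquitin ligases of the TNF receptor complex, and 0.25 for *Ikbkb*, the catalytic IκB kinase subunit. By organ they were -0.48 for *Prkcq*, the kinase PKCθ, -0.47 for *Birc2* and -0.38 for *Ikbkb*. *Map3k14*, the gene for NIK, was at 20.7, 22.2 and 18.1 CPM. The list had a median of 0.086 on the log2 scale in the age comparison, against 0.022 in the organ comparison.

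Of 13 further inhibitors at 10 CPM or more, 2 were higher by age and 2 by organ, with 0 lower in each (all genes higher 3.73% and 10.7%). In the kept clusters 1 was higher by age (all genes 3.35%) and 0 were lower (2.96%). *Bcl3* went from 16.1 CPM at 12W to 39.5 at 28W (2.46-fold, 2.22 to 2.72) and was at 38.6 in kidney. *Zc3h12a*, which encodes the RNase Regnase-1, was at 8.61, 13.4 and 33.3 CPM. *Nfkbid*, another nuclear IκB gene, was at 25.0, 22.8 and 38.5 CPM. In kidney, *Zc3h12a* reached 216 CPM and *Nfkbid* 160 in cluster 8. In the kept clusters none of the 13 differed by 1.5-fold between organs (all genes 7.43% higher and 5.64% lower). *Tnip1*, which encodes a binding partner of A20, and *Cyld*, which encodes a deubiquitinase, were more even, with *Tnip1* at 85.6, 82.7 and 76.1 CPM and *Cyld* at 49.4, 60.2 and 75.6 CPM. By age *Commd1* had a log2 ratio of -0.36, and by organ *N4bp1* one of 0.48.

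Receptors that feed the pathway went both ways. Of 9 receptors at 10 CPM or more by age, 3 were higher and 1 was lower, and of 10 by organ, 4 were higher and 1 was lower. All genes gave 3.73% and 3.04% by age, and 10.7% and 3.97% by organ. *Il18r1*, an IL-18 receptor chain, went from 16.5 to 47.8 CPM by age, and its partner *Il18rap* from 4.98 to 13.7. *Tnfrsf9* was lower at each step in whole libraries, at 99.7 CPM at 12W, 38.3 at 28W and 17.2 in kidney. At 12W it was at 523 CPM in cluster 7 and at 28.8 in the other clusters together. At 28W it reached 153 CPM in cluster 6. Its median over clusters was 23.3, 7.11 and 10.4 CPM in the 3 libraries. By organ *Tnfrsf1b*, which encodes TNF receptor 2, went from 12.9 to 27.3 CPM, and *Tnfrsf4*, which encodes OX40, from 7.15 to 13.4. In the kept clusters *Tnfrsf1b* went from 12.6 to 27.1 CPM and *Tnfrsf4* from 6.72 to 8.29 CPM.

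Genes known as NF-κB targets were counted next. Of 18 at 10 CPM or more by age, 7 were higher and 1 lower (all genes 3.73% and 3.04%), and of 21 by organ, 12 were higher and 1 lower (10.7% and 3.97%). The lower gene at both steps was *Ccr7*, a chemokine receptor for homing to lymph nodes, at 309, 181 and 78.2 CPM. *Tnf* was at 15.5, 32.3 and 63.6 CPM in the 3 libraries and *Icam1*, an adhesion molecule, at 32.0, 56.2 and 95.7. *Cxcl10*, a chemokine gene also driven by interferon, went from 2.76 to 12.8 and 41.5 CPM. *Traf1*, which encodes an adaptor of TNF receptors, was at 123, 170.0 and 163 CPM. *Ccl4* went from 99.6 at 28W to 356 CPM in kidney. *Junb*, which is on this list and on that of dissociation genes, was at 884 CPM at 28W and 757 in kidney. In the kept clusters 6 of 18 targets were higher by age and 2 lower (all genes 3.35% and 2.96%), and 9 of 18 were higher by organ and 2 lower (7.43% and 5.64%). There *Tnf* stayed 2.0-fold (1.84 to 2.18) and *Icam1* 1.92-fold (1.80 to 2.05) higher in kidney. *Cd83*, an activation gene of B and T cells, was at 10.6 CPM at 28W and 28.9 in kidney, but at 7.66 and 7.98 CPM in the kept clusters.

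Genes with a cluster pattern most like each member were sought over the 33 clusters, on log2 CPM + 1 centred within each library, among 4750 genes. Clusters share library, depth and cell mixture, so these correlations are descriptions. Of 9 members with enough UMIs, 5 had a gene at r of 0.8 or more. The share of all 4750 genes with such a match was not counted, so this count was not read as a trait of the members. *Tnfaip3* was closest to *Srsf5* (0.93), *Ppp1r15a* (0.92) and *Ythdc1* (0.92), and *Nfkbia* to *Tgif1* (0.92), *Junb* (0.84) and *Dusp1* (0.83). *Nfkb1* was closest to *Ranbp2*, *Mtdh* and *Spag9* (each 0.89), and *Rel* to *Wsb1*, *Kpna1* and *Nfkb1* (each 0.87). *Nfkbib* was closest to *Dad1* (0.88) and *Pno1* (0.81). Over the kept clusters the 3 closest genes of *Nfkb1*, *Rel* and *Nfkbib* were all others, led by *Wipi2* (0.83), *Scaf4* (0.87) and *Pes1* (0.88), while *Srsf5* and *Ppp1r15a* remained among those of *Tnfaip3* and *Tgif1* among those of *Nfkbia*. Among the members themselves *Rel* had r of 0.82 with *Tnfaip3*, which was 0.47 over the 23 kept clusters, whereas *Rela* had -0.051 with *Nfkb1*.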

How the data were processed

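Single-cell 5′ libraries (Chromium, version 2 kit) of the 3 groups were clustered by the authors. The submitters' processing notes name Cell Ranger 2.1.1, R 3.6.1 and GRCm38. The annotation and the cell filters are not given in the sources used here. The deposited values are mean counts per gene and cluster in which the UMI sum of a cluster is divided by its size factors, and a cluster number per barcode. The authors' fold changes and p-values per cluster were not used. Each column held whole multiples of its smallest value (100% of values within 0.001), so UMIs were recovered and scaled to 1000000 per library or cluster. With 1 library per group no count test could be run on them.

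Genes with 10 CPM or more in either library were compared, called at 1.5-fold on log2(CPM + 1) and given exact Poisson, conditional or binomial intervals at 95%. A 0 allows up to 3 counts, or 0.0864 to 0.100 CPM. Clusters were raised-marker when a marker list of B cells, myeloid cells, tubule or erythroid cells summed to at least 5 times its median over the library's clusters and 200 CPM. All members were named. From the pathway lists the 3 genes with the largest log2 ratio in each comparison were named, with *Bcl3*, *Nfkbid*, *Tnip1*, *Cyld*, *Map3k14*, *Traf1*, *Tnf*, *Junb* and *Tnfrsf9*. *Icam1*, *Ccr7*, *Fos* and *Dusp1* were chosen after their values were seen. Up to 3 genes per member were named for likeness, at r of 0.8 or more. Members and lists were chosen with earlier results of these data known. No doublet caller could be run on cluster means. Gene coordinates are those of GENCODE (GRCm38), which held 18974 of 18992 identifiers, and promoters those of RefSeq (GRCm38.p6). Scripts used Python 3.11.15, pandas 2.3.3 and scipy 1.17.1 and were tested on simulated data. Alternatives were other scalings, pseudocounts and minimum levels, and leaving out clusters.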

Additional observations from a re-analysis of the deposited data

How the results depend on the processing

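The age result, 3 members higher and 0 lower, held under all 9 alternatives run, but the sizes moved. With clusters weighted by cells, 4 members left their counting intervals. The log2 ratio by age was then 1.36 instead of 1.63 for *Tnfaip3* and 0.63 instead of 0.77 for *Nfkbiz*. Without the deepest clusters these ratios were 1.73 and 0.86. By organ, 1 member instead of 2 was higher under scaling by the median gene ratio, with a total without receptor, immunoglobulin, mitochondrial and ribosomal genes, with a pseudocount of 5 CPM, without raised-marker clusters, in the kept clusters and without kidney cluster 8. Lower members by organ, 0 in whole libraries, were 2 without raised-marker clusters and in the kept clusters and 1 without kidney cluster 8. Members with a 4-fold spread were 3 in 12W spleen (from 5) and 3 in 28W spleen (from 6) without low-RNA clusters, 1 in kidney (from 4) without raised-marker clusters, and 3, 0 and 1 in the kept clusters. Members with a like gene were 8 without raised-marker clusters and 9 in the kept clusters, where each correlation rested on fewer clusters (25 and 23 instead of 33). By organ, *Relb*, *Nfkbib* and *Tnfaip3* changed sign with the other total, *Nfkb1*, *Relb*, *Nfkbiz* and *Tnfaip3* with clusters weighted by cells, and *Nfkb1* without the deepest clusters. By age, *Rel* changed sign under the median scaling and *Nfkb2* without the deepest clusters. Apart from sets that leave out clusters, the cause was not tested. Median scaling and cell weighting give no spread of their own, as they move all clusters of a library together or none. The kept clusters and the set without kidney cluster 8 were chosen after seeing the data. No paired analysis was possible because each group is 1 pooled table with no replicate columns, and no replicate could be left out. Genes near 10 CPM in a low-RNA cluster rest on few UMIs, as *Nfkb2* on 7 in cluster 8 of 12W spleen.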
